A study of Homo sapiens with 4 samples.

Results

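The transcripts described here encode 10 transcription factors of the neural crest and melanocyte lineage, namely SOX10, SOX9, SOX4, SOX5, SOX6, SOX13, PAX3, TFAP2A, FOXD3 and MSX1. They were taken by gene name from a table of 17755 genes, which lists all 10. The levels came from RNA-Seq of 2 established lines of human melanoma cells, SK-MEL-28 and A375. Cells of each line were transfected with a control siRNA (siNC) or with siRNA against the long non-coding RNA LINC00622 (siLINC00622). They stayed 6 h in DMEM without serum and then 24 h in DMEM with serum. There were 4 libraries with 1 per condition, so the difference between treatments within a line had no replicate check. The tissue field of the labels names melanoma tissue, whereas the samples are cell lines, and the sequence of siNC and the LINC00622 siRNA used for these libraries are not given in the sources used here.

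Melanocytes arise from the neural crest, a migratory population at the border of the embryonic neural plate. MSX1, PAX3 and TFAP2A act at that border, FOXD3 and the SoxE factors SOX9 and SOX10 act in the crest cells that form there, and SOX10 together with PAX3 activates MITF, the regulator of the pigment program. SOX proteins share a DNA-binding HMG box and fall into groups by sequence. SOX8, SOX9 and SOX10 form SoxE, SOX5, SOX6 and SOX13 form SoxD, and SOX4, SOX11 and SOX12 form SoxC. SoxD proteins have no activation domain of their own and modulate the activity of SoxE proteins at shared target genes.

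Markers fixed for the pigment cell lineage (MITF, PMEL, MLANA, TYR, TYRP1, DCT and S100B) were all listed. Their summed FPKM (reads scaled for library size and gene length) was 1909 and 2060 in the siNC and siLINC00622 libraries of SK-MEL-28, against 15.0 and 17.5 in A375. In A375, TYR, DCT and MLANA each stayed under 1 FPKM, PMEL had 2.24 and 2.35 FPKM, MITF 5.29 and 4.95 FPKM and S100B 5.54 and 8.40 FPKM. TYRP1 was under 1 FPKM in all 4 libraries. A375 thus had low levels of all 7 markers, with 0 of them at 0, although the line is labelled as melanoma. Of 7 keratinocyte and 7 fibroblast markers, 2 of each were listed, and the highest of these was KRT10 at 26.3 FPKM in the siLINC00622 library of A375. KRT10 differed little between the lines (log2 difference of SK-MEL-28 over A375 -0.25). KRT14 had 6 and 2 counts in SK-MEL-28 (siNC and siLINC00622) and 494 and 504 in A375. PDGFRB had 2 and 5 counts against 416 and 547. LUM was instead higher in SK-MEL-28, with 803 and 892 counts against 187 and 372. LINC00622 itself was lower with its siRNA in both lines, from 9.33 to 3.95 CPM (counts scaled for library size only) in SK-MEL-28 and from 4.32 to 2.36 CPM in A375.

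SOX10, which specifies the glial and pigment cells of the crest, was by far the most abundant of the 10 transcripts. SK-MEL-28 had 152.5 FPKM in its siNC library and 150.0 FPKM after depletion, while A375 had 118 and 149 FPKM. Among all genes of the table it ranked between 162 and 261 in the 4 libraries. The A375 siNC library was the lowest, and the A375 siLINC00622 library lay close to both libraries of SK-MEL-28. SOX10 mRNA was therefore high in both lines, including A375, where no pigment lineage marker exceeded 8.40 FPKM.

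SOX9, the SoxE factor that drives cartilage formation, was lowest in SK-MEL-28 and, with SOX6, among the lowest in A375. It had 11 and 15 counts (0.0845 and 0.112 FPKM) in the siNC and siLINC00622 libraries of SK-MEL-28. In A375 it had 128 and 138 counts (1.04 and 0.965 FPKM). All values of A375 lay above all of SK-MEL-28, a separation that was not counted over all genes. On the FPKM scale SOX10 exceeded SOX9 by 1805-fold and 1343-fold in SK-MEL-28, and by 114-fold and 154-fold in A375, in the same order of treatments.

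After SOX10 the lines differed in which factors came next. In SK-MEL-28, SOX10 was followed by SOX13 (mean of the 2 libraries 13.0 FPKM), TFAP2A (11.6 FPKM) and SOX4 (7.20 FPKM), and the libraries of these neighbours did not overlap. PAX3, SOX5, MSX1, SOX6 and FOXD3 had means from 5.69 down to 4.47 FPKM, and each overlapped the next in this order. In A375, SOX5 (14.0 FPKM) and MSX1 (11.3 FPKM) came next to SOX10 and overlapped each other, followed by SOX13 (2.97 FPKM) and TFAP2A (2.76 FPKM), which also overlapped. SOX4, PAX3 and FOXD3 came after them at 2.29, 2.02 and 1.43 FPKM without overlap, and SOX9 and SOX6, at 1.00 and 0.792 FPKM, overlapped at the end. The order of genes with several long exon variants depends on the length by which counts are divided. The deposited FPKM used 20.1 kb for SOX6 and 7.94 kb for PAX3, whereas their longest coding transcripts in GENCODE 29 measure 8.87 and 3.17 kb. With the latter lengths, an alternative chosen after seeing the data, SOX6 moved from the rank of 8 to 5 and SOX4 from 4 to 7 in SK-MEL-28. SOX10 stayed first in both lines.

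**Figure D1:**
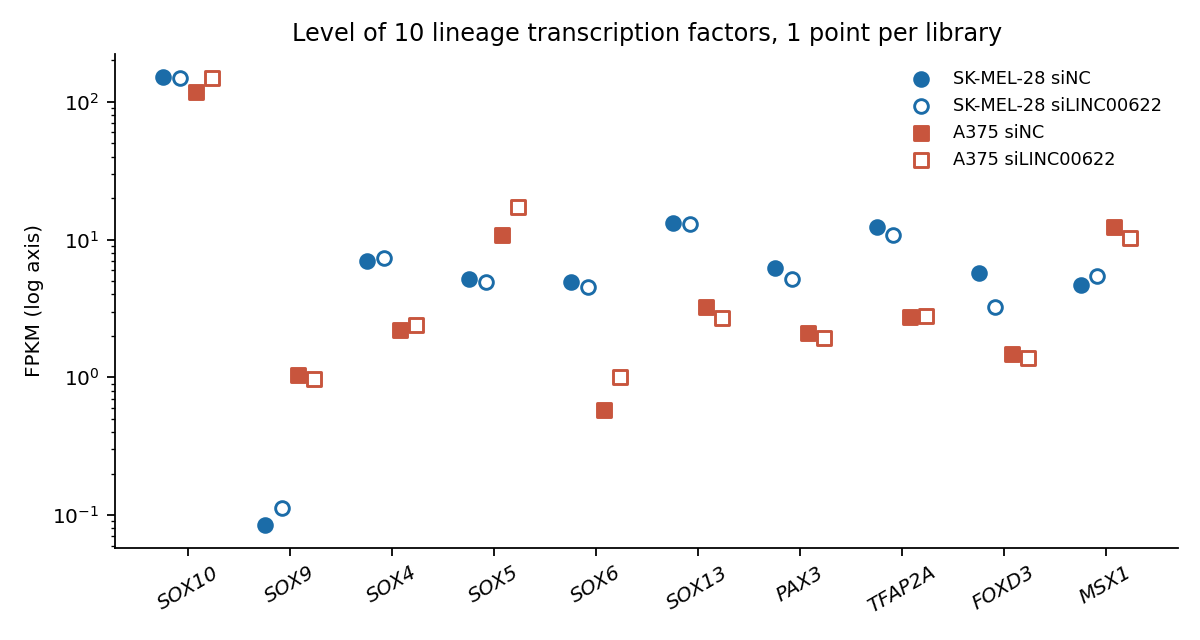
FPKM of the 10 factors (log axis) with 1 point per library, filled for siNC and open for siLINC00622, circles for SK-MEL-28 and squares for A375. SOX10 lies between 118 and 152.5 FPKM in every library, and SOX9 in SK-MEL-28 is lowest at 0.0845 and 0.112 FPKM.

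How the lines differed was tested over the 4 libraries with edgeR's quasi-likelihood test of cell line, with treatment as a covariate. Of the 10 factors, 7 were higher in SK-MEL-28 and 3 were higher in A375 at a Benjamini-Hochberg adjusted p below 0.05. The background was high, since 33.3% of all 16742 genes tested were higher in SK-MEL-28 and 34.4% were higher in A375. The median log2 difference of the 10 was 1.71, against -0.04 over all genes tested. By a stricter description, a difference above 2-fold both between the siNC and between the siLINC00622 libraries, 6 of the 10 were higher in SK-MEL-28 (15.4% of all genes) and 1, SOX9, was higher in A375 (16.8% of all genes). Each line contributes 1 library per treatment, so the libraries of a line are not replicates of 1 condition. The residual, with 1 degree of freedom, is the difference of the treatment effect between the lines. The p-values also draw on the spread of other genes (median prior degrees of freedom 5.78). They do not measure the spread between cultures of a line.

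TFAP2A, which encodes the factor AP-2 alpha, differed most of the 4 factors outside the SOX family. It had 101 and 89.1 CPM in SK-MEL-28 and 22.4 and 22.9 CPM in A375 (siNC and siLINC00622), a log2 difference of 2.23 (edgeR adjusted p = 4.2e-06). PAX3, the paired-box partner of SOX10 at MITF, had 49.4 and 40.9 CPM in SK-MEL-28 and 16.8 and 15.3 CPM in A375, with a log2 difference of 1.66 (edgeR adjusted p = 1.6e-05). FOXD3, a forkhead repressor that keeps crest cells undifferentiated, had 14.6 and 8.34 CPM in SK-MEL-28 against 3.81 and 3.55 CPM in A375, with a log2 difference of 1.76 (edgeR adjusted p = 0.00032). For each of these 3 genes both libraries of SK-MEL-28 lay above both of A375, a separation that was not counted over all genes. MSX1, a homeobox factor of the neural plate border, went the other way. SK-MEL-28 had 9.94 and 11.5 CPM and A375 26.3 and 21.8 CPM, with a log2 difference of -0.99 (edgeR adjusted p = 0.00094).

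Within SoxD, the 3 genes split between the lines. SOX6, a factor of cartilage, muscle and red blood cells, had 98.9 and 90.9 CPM in SK-MEL-28 and 11.7 and 20.2 CPM in A375. In the edgeR fit its log2 difference was the largest of the 10 in favour of SK-MEL-28, at 2.78 (edgeR adjusted p = 3.3e-05). SOX13 followed it with 97.6 and 95.8 CPM against 24.0 and 20.1 CPM, a log2 difference of 2.31 (edgeR adjusted p = 3.4e-06). This order depended on the method and the libraries. With limma on log2(FPKM + 1), SOX13 (1.82) and TFAP2A (1.74) lay above SOX6 (1.68). Between the siLINC00622 libraries, SOX13 (2.41) lay above SOX6 (2.33). SOX5, which can modulate SOX10 in the melanocyte lineage, was instead higher in A375, where it had 119 and 192 CPM against 57.5 and 54.7 CPM in SK-MEL-28 (log2 difference -1.26, edgeR adjusted p = 0.00064). The libraries of the lines overlapped for none of these 3 genes. How often this held over all genes was not counted, and 33.3% and 34.4% of all genes tested were called higher in SK-MEL-28 and A375.

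The makeup of the group changed accordingly. SOX13 made up 56.5% and 57.7% of the summed FPKM of the 3 SoxD genes in SK-MEL-28, where SOX5 made up 22.3% and 22.1%. In A375, SOX5 made up 73.8% with siNC and 82.3% with siLINC00622, while SOX6 made up 3.99% and 4.77%. Per length of the longest coding transcript the leading gene of each line was unchanged, with SOX13 at 58.4% and 59.6% of SK-MEL-28 and SOX5 at 68.1% and 77.7% of A375. The sum itself came to 23.3 and 22.4 FPKM in SK-MEL-28, against 14.5 and 21.0 FPKM in A375.

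**Figure D2:**
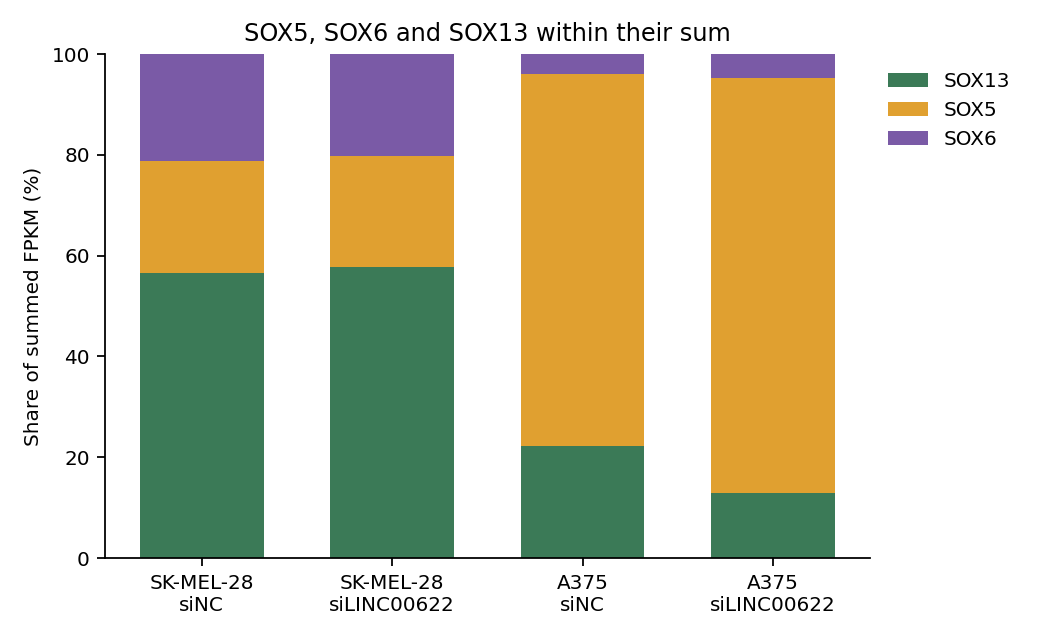
Share (%) of SOX5, SOX6 and SOX13 in their summed FPKM, 1 bar per library. SOX13 leads in both libraries of SK-MEL-28 at 56.5% and 57.7%, and SOX5 leads in both libraries of A375 at 73.8% and 82.3%.

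SoxE and SoxC also held genes that differed in opposite directions. SOX10 was higher in SK-MEL-28 by a log2 difference of 0.36 (edgeR adjusted p = 0.018), which was 0.54 between the siNC libraries and 0.18 between the siLINC00622 libraries. With library totals in place of TMM scaling it was 0.19 (edgeR adjusted p = 0.143), and without treatment as a covariate it was 0.35 (adjusted p = 0.060), so the call for SOX10 depended on both choices. SOX9 was higher in A375 (log2 difference -3.17, edgeR adjusted p = 5.9e-05), and on the log2(FPKM + 1) scale the difference was -0.87. SOX8, the third SoxE gene and not among the 10, had 11.2 and 6.09 CPM in SK-MEL-28 and 0.608 and 0.302 CPM in A375. SOX4, a SoxC factor of progenitor cells, had 34.1 and 35.9 CPM in SK-MEL-28 and 10.7 and 11.6 CPM in A375, with a log2 difference of 1.82 (edgeR adjusted p = 1.2e-05). Its relative SOX11 had 13 and 20 counts in SK-MEL-28 and 2220 and 2598 counts in A375, a log2 difference of -7.00. SOX12, the remaining SoxC gene, went the way of SOX4, with 55.0 and 61.0 CPM in SK-MEL-28 and 35.2 and 37.0 CPM in A375. The log2 difference of SOX12 was 0.85 (edgeR adjusted p = 0.00023).

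**Figure D3:**
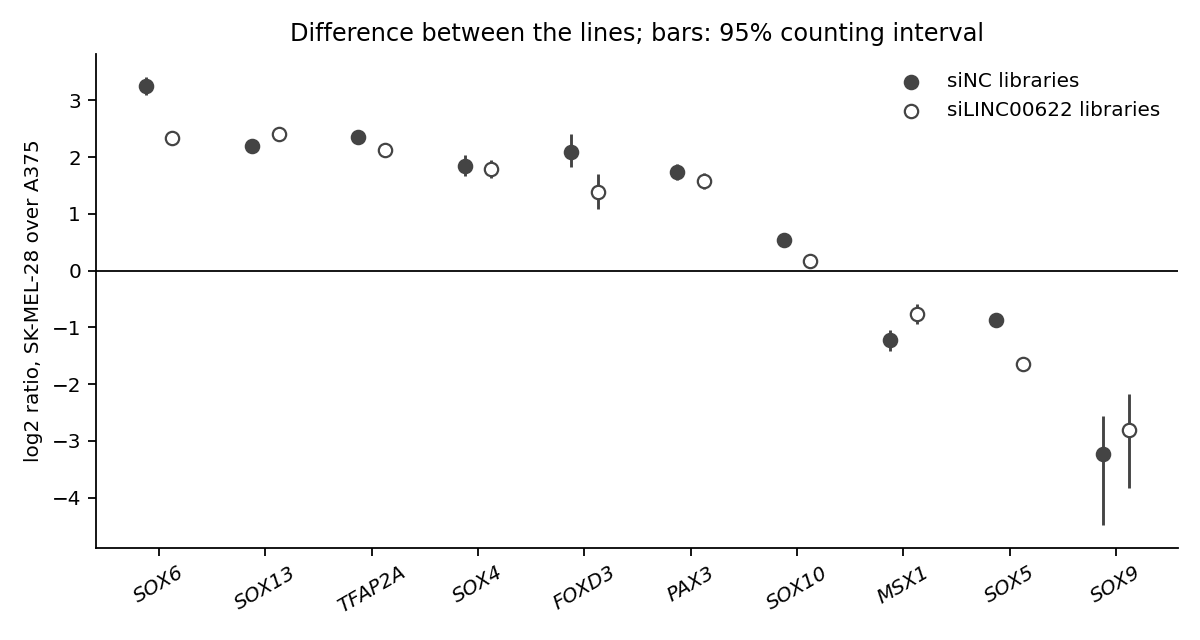
Log2 ratio of SK-MEL-28 over A375 for each factor between siNC libraries (filled) and between siLINC00622 libraries (open), with 95% counting intervals as bars. The factors, ordered by the fitted difference, run from SOX6 at 3.25 and 2.33 to SOX9 at -3.24 and -2.81, SOX13 lies highest between the siLINC00622 libraries at 2.41, and no factor changes its direction between treatments.

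The study asked what LINC00622 depletion changes in the transcriptome. In SK-MEL-28, 1 of the 10 factors passed a 1.5-fold change, which was FOXD3. Of all 15442 genes tested in this line, 6.48% were lower by more than 1.5-fold and 4.58% were higher. None of the 10 was higher by that much. The median log2 ratio of siLINC00622 over siNC was -0.04 for the 10 and 0.00 for all genes tested. The 1.5-fold threshold is a size of change and not a test, and the intervals given with it cover counting error only.

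FOXD3 (ENSG00000187140) is a gene of 1 exon on the plus strand at chr1:63323041-63325126 of GRCh38. In SK-MEL-28 its count was 482 with siNC and 285 with siLINC00622, and its level was 1.72-fold lower (log2 ratio -0.78, 95% interval -1.01 to -0.57). The end of this interval nearest to 0 lay inside the 1.5-fold threshold. In A375 the counts were 119 and 129, with a log2 ratio of -0.10 (interval -0.47 to 0.27). The log2 ratios differed by -0.69 (SK-MEL-28 minus A375, interval -1.11 to -0.27), and this gap could not be tested without replicates.

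The antisense gene FOXD3-AS1 shares 179 exon bases with FOXD3. It had 134 and 90 counts in SK-MEL-28, a log2 ratio of -0.59, and 31 and 30 counts in A375, a log2 ratio of -0.25. The library kit does not mark strand, so reads from the shared bases cannot be assigned to one of the 2 genes. The part of FOXD3-AS1 in the FOXD3 result was not tested.

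The study lists 2 siRNA targets in LINC00622, given here with the site complementary to the guide's seed (its bases 2 to 8) in capitals. They are shown because a seed site can lower other mRNAs, and 1 of the 10 factors holds one. The first target lies at bases 555 to 573 and the second at bases 815 to 833 of the LINC00622 transcript. The third line is the stretch of the FOXD3 3′ UTR that carries the site of the second siRNA, at chr1:63324845-63324851 of GRCh38 on the plus strand.
siLINC00622_1: ccctaaagaaaGTGAGAAa
siLINC00622_2: ggcaacctctaATTGACTt
FOXD3: gtaaaaaaattATTGACTttcct

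The seed site GTGAGAA was in the longest annotated 3′ UTR of 0 of the 10 factors, and of 14.6% of the 12370 genes with a 3′ UTR. ATTGACT was in that of 1 factor, FOXD3, at bases 350 to 356 of 631, and of 11.6% of the 12370 genes. The search was made on the transcript strand. A match of these letters is a description, and its part in the lower FOXD3 count was not tested.

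The other factors had smaller ratios in SK-MEL-28. PAX3 (chr2:222199888-222298996, minus strand) had a log2 ratio of -0.26 (interval -0.36 to -0.16) and TFAP2A (chr6:10393186-10419659, minus strand) one of -0.17 (interval -0.24 to -0.10). MSX1 (chr4:4859666-4863936, plus strand) had a log2 ratio of 0.23 (interval 0.01 to 0.44) on 329 and 394 counts. These 3 ratios lay outside the counting error and under the 1.5-fold threshold. SOX10, SOX4, SOX5 and SOX13 had log2 ratios between -0.06 and 0.09, with intervals that held 0. The log2 ratio of SOX9, on 11 and 15 counts, was 0.36 (interval -0.80 to 1.68), so a change was not detectable at this depth.

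In A375, 2 of the 10 factors passed a 1.5-fold change, the SoxD genes SOX5 and SOX6, and both were higher with siLINC00622. Of all 16021 genes tested in this line, 4.43% were higher and 4.44% were lower by more than 1.5-fold. No factor of the 10 was lower by that much. The median log2 ratio was -0.03 for the 10 and 0.00 for all genes tested.

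SOX5 (ENSG00000134532) spans chr12:23529500-24562544 on the minus strand. Its counts in A375 were 3714 with siNC and 6973 with siLINC00622, which was 1.62-fold higher (log2 ratio 0.69, interval 0.64 to 0.75). In SK-MEL-28 they were 1904 and 1868 (log2 ratio -0.06, interval -0.15 to 0.03). Both A375 libraries stood above both of SK-MEL-28, and the gap was wider with siLINC00622.

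SOX6 (ENSG00000110693) spans chr11:15966449-16739591 on the minus strand. Its counts in A375 were 365 and 734, which was 1.73-fold higher with siLINC00622 (log2 ratio 0.79, interval 0.61 to 0.98). In SK-MEL-28 the counts were 3274 and 3107, with a log2 ratio of -0.11 (interval -0.18 to -0.04). Even the higher value of A375 stayed below both libraries of SK-MEL-28, so the gap between the lines was narrower with siLINC00622. On the scale of log2(FPKM + 1) the A375 ratio was 0.34 and no longer passed 1.5-fold, because the FPKM of SOX6 there was 0.581 and 1.00. SOX6 shares 219 exon bases with C11orf58 on the other strand, a gene named after its values were seen. C11orf58 had log2 ratios of -0.04 and -0.01 in SK-MEL-28 and A375.

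SOX13 (chr1:204073115-204127743, plus strand), the third SoxD gene, did not follow SOX5 and SOX6 in A375. Its log2 ratio was -0.25 there (interval -0.40 to -0.10) and -0.01 in SK-MEL-28 (interval -0.08 to 0.06). The study detected SOX13 by mass spectrometry among the proteins pulled down with LINC00622 RNA. It chose BTF3 and SOX13 for follow-up as the highest expressed of the transcription factors detected. With siNC, SOX13 had 97.6 CPM in SK-MEL-28, below BTF3 (390) and above SMARCA1 (58.6). By FPKM it lay there at 13.2, below CFAP20 (13.6) and SMARCA1 (13.4). In A375 with siNC, SOX13 had 24.0 CPM, below ETV6 (29.1), CFAP20 (40.8), SMARCA1 (64.0) and BTF3 (761). The study's western blot of the pulldown found no direct interaction of SOX13 with LINC00622. Of the other 4 factors detected with it (BTF3, CFAP20, ETV6 and SMARCA1), 0 passed 1.5-fold in either line, with log2 ratios from -0.54 to -0.09 in SK-MEL-28 and from -0.34 to 0.38 in A375. So few genes cannot be set apart from the shares of all genes past 1.5-fold, which were 4.58% higher and 6.48% lower for SK-MEL-28 and 4.43% higher and 4.44% lower for A375.

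SOX10 (chr22:37970686-37987422, minus strand) had 15109 and 22107 counts in A375, from libraries of 31269923 and 36384819 counts in all. After scaling this was 1.26-fold of the siNC level (log2 ratio 0.33, interval 0.30 to 0.36), which lay outside the counting error and under the 1.5-fold threshold. MSX1 had a log2 ratio of -0.26 (interval -0.40 to -0.12). SOX9 (chr17:72121020-72126420, plus strand), SOX4 (chr6:21592768-21598619, plus strand), PAX3, TFAP2A and FOXD3 had log2 ratios between -0.13 and 0.13 in A375, with intervals that held 0.

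**Figure D4:**
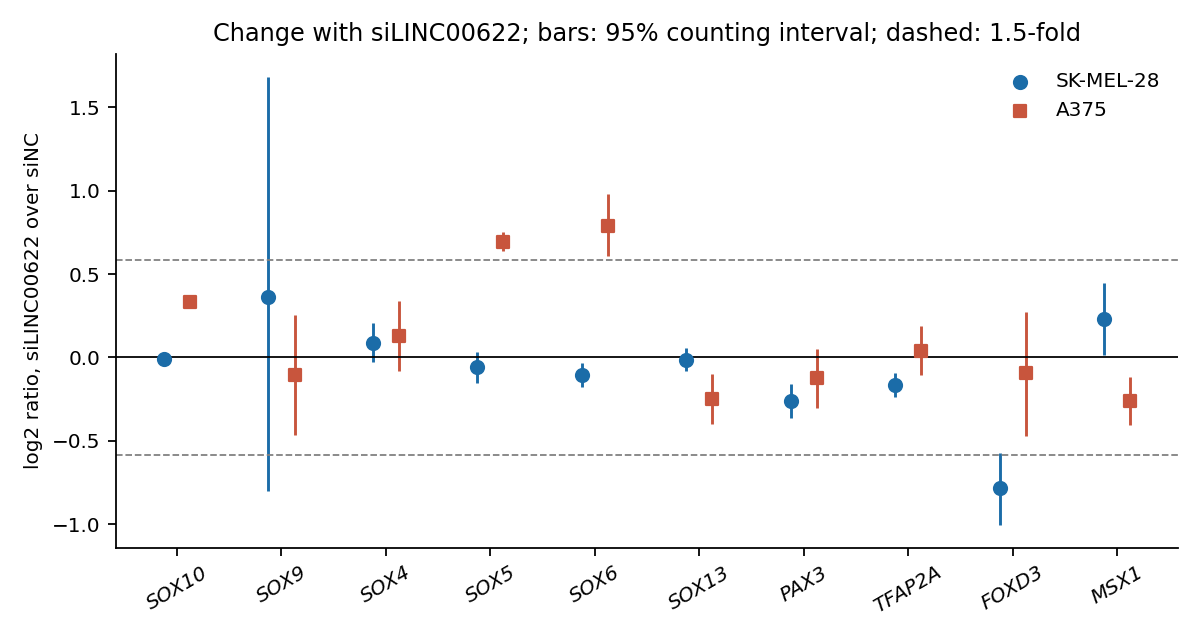
Log2 ratio of siLINC00622 over siNC for each factor in SK-MEL-28 (circles) and A375 (squares), with 95% counting intervals as bars and the 1.5-fold thresholds dashed. FOXD3 lies past the threshold in SK-MEL-28 at -0.78, and SOX5 and SOX6 lie past it in A375 at 0.69 and 0.79.

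The 3 factors past 1.5-fold in one line were thus not past it in the other. How many of all genes passed this threshold in both lines was not counted. Since only small shares of all genes passed it in either line, a lack of overlap among 10 factors does not show a line-specific response. With cell line as the block, edgeR's quasi-likelihood test of the treatment over both lines called 0 of the 10 factors, and 0.448% of all 16742 genes, at an adjusted p below 0.05. LINC00622, the target of the siRNA, did not pass this test either (log2 ratio over both lines -1.05, edgeR adjusted p = 0.101). At an unadjusted p under 0.05 the counts were 0 of the 10 factors and 2432 genes. Limma called 0 of the 10, and DESeq2 called 0 of the 8 to which it gave an adjusted p. DESeq2 gave none to SOX9 and FOXD3, whose unadjusted p was 0.843 and 0.246. The lowest adjusted p of edgeR was that of FOXD3 (log2 ratio over both lines -0.47, adjusted p = 0.37, below 0 in each line), and the highest was that of SOX9 at 0.98. The fit has 1 residual degree of freedom, which is the difference of the treatment effect between the lines.

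Genes beside or across a factor were set next to it, since shared bases could carry counts over. The table lists 6 of them. Besides FOXD3-AS1 and C11orf58, POLR2F (89 exon bases shared with SOX10) had log2 ratios of 0.10 and -0.13 in SK-MEL-28 and A375, where SOX10 had -0.01 and 0.33. TFAP2A-AS1 and TFAP2A-AS2, which share 438 and 941 exon bases with TFAP2A, had at most 91 and 82 counts in any library, against at least 700 for TFAP2A. CCDC140, the divergent neighbour of PAX3 with 0 shared exon bases, had 43 and 31 counts in SK-MEL-28 and 12 and 9 counts in A375.

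Pigment and glial genes listed as downstream of SOX10 were set beside it. Of 27 written, 23 were listed, and 16 were higher in SK-MEL-28 and 5 in A375 by the edgeR test of cell line, beside 33.3% and 34.4% of all genes tested. The 7 pigment lineage markers given above are all in this list and among the 16. The median log2 difference of the list was 2.96, against 0.36 for SOX10. The largest differences in favour of SK-MEL-28 were those of DCT (9.15) and TYR (9.13), which encode melanin-forming enzymes. The largest in favour of A375 were those of NES (-6.08), an intermediate filament of progenitor cells, and NGFR (-5.13), a neurotrophin receptor of crest cells. The difference of NGFR was -4.28 between siNC and -6.39 between siLINC00622 libraries, as it had 251 and 54 counts in SK-MEL-28 (log2 ratio of siLINC00622 over siNC -2.21), the largest ratio of the list in either line. In the other direction, TRPM1 had 5411 and 16019 counts in SK-MEL-28 (log2 ratio 1.53, interval 1.49 to 1.58). TRPM1 had 26 and 16 counts in A375 (log2 ratio -0.83). With siLINC00622, 1 gene was higher and 4 lower past 1.5-fold in SK-MEL-28, while in A375 these numbers were 1 and 2. Over all genes tested the shares were 4.58% and 6.48% in the former and 4.43% and 4.44% in the latter. The median log2 ratio was -0.02 in SK-MEL-28, where SOX10 had -0.01, and 0.07 in A375, where SOX10 had 0.33.

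**Figure D5:**
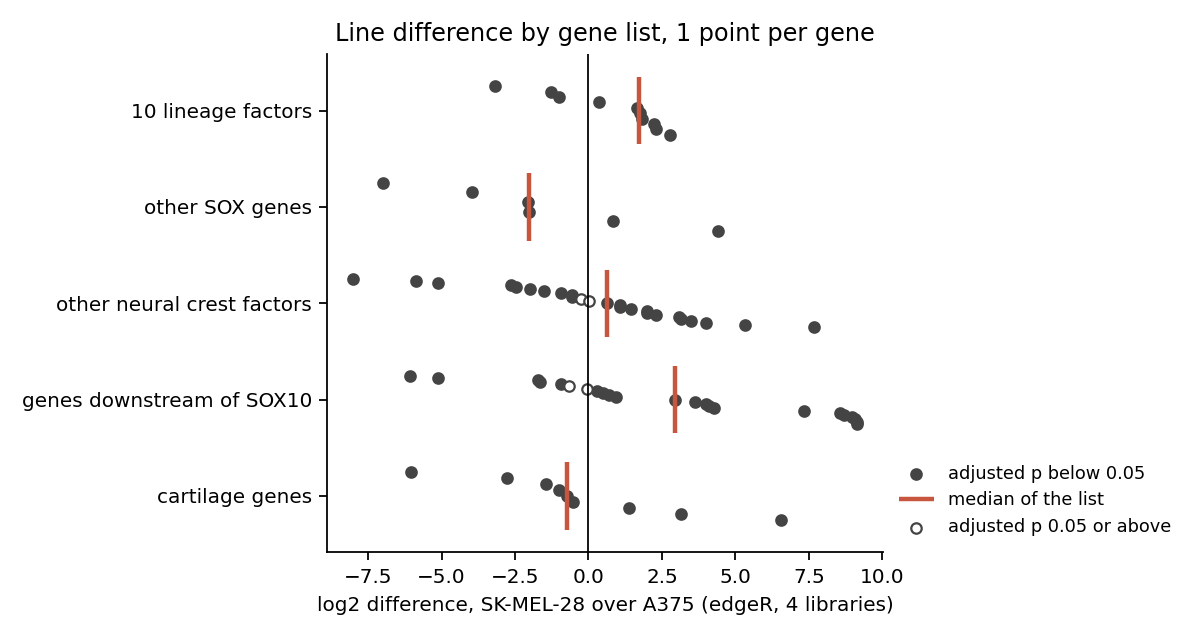
Log2 difference of SK-MEL-28 over A375 for each gene of 5 lists, filled where the edgeR adjusted p is below 0.05, with the median of each list as a red line. The 10 lineage factors have a median of 1.71 and the genes listed as downstream of SOX10 one of 2.96, with genes on both sides of 0 in each list.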

How the data were processed

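RNA-Seq was performed on SK-MEL-28 and A375 cells treated with siNC or siLINC00622, with 4 libraries grouped by the line and treatment in their labels. Poly(A) RNA was used for the libraries. The deposited table gives raw counts per gene, as whole numbers. Its CPM columns, also made by the authors, divide these by the library total. Its deposited FPKM columns equal CPM divided by a length per gene. For the 10 factors this length was between 0.832 (SOX4) and 1.23 (FOXD3) times the union of exons in GENCODE 29. Deposited TPM values were not used. The submitters' processing notes name HISAT2, TopHat2, Bowtie2, HISAT and hg19, without their roles, and the counting is not given in the sources used here. Coordinates are those of GRCh38 in GENCODE 29, matched by Ensembl identifier for all 10 factors.

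Library totals were 33110470 and 34164676 counts in SK-MEL-28 (siNC and siLINC00622) and 31269923 and 36384819 counts in A375, with 99.7% to 99.8% on listed genes. Log2 ratios within a line used TMM scaling of edgeR 4.0.16 (R 4.3.3), a prior count of 2 and genes that reached 10 counts in either library. Their 95% Clopper-Pearson intervals reflect only counting error, as reads carry no molecular identifiers. Intervals of the difference between the log2 ratios of the lines were 95% normal approximations from the counts, without the prior count. The fit of line and treatment used edgeR's quasi-likelihood test on the counts of all 4 libraries, with Benjamini-Hochberg adjustment over 16742 genes. The script was tested on simulated data. Alternatives covered scaling, prior count, filters, fold threshold, deposited FPKM, DESeq2 1.42.0, limma 3.58.1 and fits without the covariate. Other steps used Python 3.11.15.

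The factors and gene lists were chosen with earlier results of these data known. Named genes are the 10 factors, LINC00622, the 4 other pulldown factors, listed genes beside or across a factor and, from each list, up to 2 per direction with the largest called line difference and up to 2 past 1.5-fold the same way in both lines with at least 50 counts in 1 library of each line. Genes that completed a SOX group and list members called within a line were named after their values were seen.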

Additional observations from a re-analysis of the deposited data

Results flagged for a closer look

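SOX6 and MSX1 had log2 ratios of siLINC00622 over siNC that pointed in opposite directions in the 2 lines, each with a counting interval away from 0. SOX6 had -0.11 in SK-MEL-28 against 0.79 in A375, a difference of -0.897 (counting interval -1.09 to -0.71). MSX1 had 0.23 in SK-MEL-28 against -0.26 in A375, a difference of 0.4897 (counting interval 0.24 to 0.75). With 1 library per condition neither difference was tested.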

How the results depend on the processing

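With a threshold of 2-fold in place of 1.5-fold, 0 of the 10 factors were called in SK-MEL-28, as were 0 in A375. On log2(FPKM + 1), 1 factor (SOX5) was called in A375, and the cause is the pseudocount, which outweighs the low FPKM of SOX6 there. SOX10 lost its call between the lines with library totals (log2 difference 0.19, edgeR adjusted p = 0.143), without treatment as a covariate (0.35, adjusted p = 0.060) and with limma on FPKM (0.19, adjusted p = 0.147), which left 9 of the 10 called. Over its alternatives its log2 difference ran from 0.19 to 0.38. Library totals moved the median line difference of all genes by -0.17 and the share of calls higher in SK-MEL-28 from 49.2% to 40.5%. Limma on log2(FPKM + 1), whose pseudocount shrinks differences of low genes, moved the line difference of SOX9 from -3.17 to -0.87, of SOX6 from 2.78 to 1.68 and of FOXD3 from 1.76 to 1.13. No factor with a call reversed its direction.

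Genes past 1.5-fold numbered 1708 in SK-MEL-28 and 1422 in A375. They numbered 994 and 709 with at least 50 counts, 494 and 302 on log2(FPKM + 1), and 431 and 284 past 2-fold. The treatment over both lines called 75 genes with cell line as the block, 0 without this replicate block, 1 with library totals, 46 with at least 10 counts in 2 libraries, 121 without a filter, 305 with DESeq2 and 1 with limma. None of these alternatives called a factor, though DESeq2 gave no adjusted p to SOX9 and FOXD3. Labels carry no replicate numbers. As each condition has 1 library, no replicate could be left out. Depth limits SOX9 in SK-MEL-28, at 11 and 15 counts.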

Other observations

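Other neural crest factors showed larger gaps between the lines than the 10 factors did at their extremes. Of 29 written, 25 were listed, of which 13 were higher in SK-MEL-28 and 10 in A375 by the edgeR test of cell line, beside 33.3% and 34.4% of all genes tested. The median log2 difference of the list was 0.65, against -0.04 over all genes. SNAI2, which encodes the crest factor SLUG, had 332.9 and 306.8 CPM in SK-MEL-28 and 1.18 and 2.25 CPM in A375 (log2 difference 7.69). RXRG, a retinoid receptor, differed by 5.33 on the log2 scale. In the other direction, TWIST2 had 1 count in each library of SK-MEL-28 and 310 and 348 counts in A375. PRDM1 had 1 and 6 counts in SK-MEL-28 and 181 and 289 counts in A375 (log2 difference -5.85). With so few counts in SK-MEL-28, the size of both differences is imprecise. With siLINC00622, 1 of the 22 tested was higher and 2 were lower past 1.5-fold in SK-MEL-28 (4.58% and 6.48% of all genes), while in A375 it was 2 and 2 of 25 (4.43% and 4.44%). ZIC2, a zinc-finger factor of the neural plate, was lower past 1.5-fold in both lines, with 189 and 110 counts in SK-MEL-28 (log2 ratio -0.80) and 557 and 395 counts in A375 (log2 ratio -0.71), and did not pass the edgeR test over both lines (adjusted p = 0.11).

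Of the 6 other SOX genes listed, 0 were higher and 2 lower past 1.5-fold in SK-MEL-28, while in A375 it was 1 and 1, against the same shares of all genes. SOX8 had lower counts with siLINC00622 in both lines, 372 and 208 in SK-MEL-28 (log2 ratio -0.86, counting interval -1.12 to -0.62) and 19 and 11 in A375 (-0.88, interval -2.22 to 0.14), and did not pass the edgeR test over both lines (adjusted p = 0.139). SOX2 had 18 and 11 counts in SK-MEL-28 and 188 and 343 counts in A375, where its log2 ratio was 0.65 (interval 0.39 to 0.92). Of 16 genes of the cartilage program of SOX9, SOX5 and SOX6, 9 were listed and 0 passed 1.5-fold with siLINC00622 in either line (the shares of all genes past it were 4.58% higher and 6.48% lower for SK-MEL-28 and 4.43% higher and 4.44% lower for A375). Between the lines 3 were higher in SK-MEL-28, led by COL11A1 (log2 difference 6.54) and ACAN (3.15), and 6 were higher in A375, led by HAPLN1 (-6.05) and COL27A1 (-2.78), where 33.3% and 34.4% of all genes tested were higher.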
